A study of Drosophila melanogaster with 2 samples.

Results

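The zinc-finger protein her (hermaphrodite) had 673 thresholded peaks on the *Drosophila melanogaster* X chromosome, of 3930 in the list deposited for the dm6 genome build. They were chosen by chromosome alone, as every region of that list that lies on X, and the other 3257 peaks, on chromosomes 2, 3 and 4, served as the comparison. The peaks come from chromatin immunoprecipitation followed by sequencing (ChIP-seq) with an antibody against GFP, in whole embryos of a transgenic line that stably makes her carrying GFP at its C terminus. The embryos were 0 to 24 hours old and male and female embryos were pooled; the 2 samples, biological replicates 1 and 2, form a single group, so no condition was compared. Chromatin was sheared by sonication into fragments of 200 to 800 bp. The antibody sees only the tagged protein, every peak is an average over all cell types, ages and both sexes of the embryo, and embryos without the tag were not analysed here. The control listed for both replicates is the same, and it was not analysed here either.

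In flies, sex is set by the number of X chromosomes. X-linked signal elements such as sisA, sc, upd1 and run switch on Sxl, the master gene of female development, in embryos with a pair of X chromosomes, and her supplied by the mother is known to help this step, while her made by the embryo acts in sexual differentiation and on the yolk protein genes. Males have a single X, and the MSL complex, which contains the acetyltransferase mof and the roX1 and roX2 RNAs, raises its transcription. A pool of both sexes therefore holds fewer copies of X than of the autosomes; the sources used here do not say whether the deposited signals were adjusted for copy number, and its part in the results was not tested.

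The sequences below are those under the summits, the positions of highest signal within a peak, that the results turn on, from the RefSeq Release 6 genome, the same assembly as dm6. Each runs 50 bp to either side of the summit unless an annotated untranslated region made it shorter, and is written 5′ to 3′ on the plus strand. Capitals mark any of 12 short words searched on both strands, which are described with the word counts. Snx27 and CG11596 are the strongest and the third strongest X peaks. RpS10b and snf show the word TATCGATA at promoters. CG32772 and Raf are intronic peaks. Sxl and lncRNA:roX1 belong to sex determination and dosage compensation. Ugalt and Pi4KIIIalpha, which ranked 2 and 4 on X, are not printed. Their windows hold no TATCG, a shorter form of TATCGATA that those of Snx27 and CG11596 hold.
Snx27 at chrX:5738059-5738159: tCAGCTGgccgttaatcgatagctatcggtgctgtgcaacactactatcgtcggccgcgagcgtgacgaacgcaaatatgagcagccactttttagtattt
CG11596 at chrX:1927578-1927678: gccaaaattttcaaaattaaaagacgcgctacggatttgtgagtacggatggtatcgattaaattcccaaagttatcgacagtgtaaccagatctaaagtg
RpS10b at chrX:19597946-19598030: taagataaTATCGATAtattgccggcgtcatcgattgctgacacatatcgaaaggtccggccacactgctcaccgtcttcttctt
snf at chrX:5309140-5309240: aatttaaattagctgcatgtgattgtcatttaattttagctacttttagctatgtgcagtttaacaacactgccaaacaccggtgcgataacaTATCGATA
CG32772 at chrX:4910327-4910427: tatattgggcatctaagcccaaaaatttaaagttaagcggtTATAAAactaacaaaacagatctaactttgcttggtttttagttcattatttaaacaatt
Raf at chrX:2297678-2297778: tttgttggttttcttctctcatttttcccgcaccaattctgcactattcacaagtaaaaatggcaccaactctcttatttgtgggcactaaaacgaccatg
Sxl at chrX:7096618-7096718: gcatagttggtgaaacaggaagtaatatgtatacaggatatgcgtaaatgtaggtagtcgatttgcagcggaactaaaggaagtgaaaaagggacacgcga
Sxl (start of the gene) at chrX:7098054-7098119: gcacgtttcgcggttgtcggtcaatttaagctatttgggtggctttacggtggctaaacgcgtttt
lncRNA:roX1 at chrX:3861339-3861439: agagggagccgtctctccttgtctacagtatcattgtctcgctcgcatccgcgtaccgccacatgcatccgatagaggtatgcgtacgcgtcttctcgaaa

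The strongest X peak stood apart from the others. It lay 78 bp upstream of the transcription start site (TSS) of Snx27, a sorting nexin whose mammalian counterpart returns membrane proteins from endosomes to the cell surface, and had a signal of 5142 in the thresholded list, with 2198 in replicate 1 and 2959 in replicate 2. Signals are the authors' own values on a scale that is not stated, so they are used to rank peaks within a list and, between replicates, to set X against the autosomes. Next came Ugalt, the Golgi carrier of UDP-galactose, with a signal of 2369 at 41 bp upstream of its TSS, with 1286 in replicate 1 and 1089 in replicate 2. CG11596 followed with 1484, with 701 in replicate 1 and 788 in replicate 2, and Pi4KIIIalpha, a lipid kinase of the plasma membrane, with 1407, with 596 in replicate 1 and 818 in replicate 2. Snx27 was thus the strongest X peak and Ugalt the next in each replicate.

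The remaining 16 of the 20 strongest X peaks had signals between 1296 and 755. At promoters they included MFS10, named for the major facilitator family of membrane transporters (1296), ph-p, a Polycomb-group protein (1185), the transcription factor Atf3 (988), CG8924 (941), CG3009 (882), moody, a receptor of the glial blood-brain barrier (861), bves (817) and TRAM (775). The long noncoding RNA lncRNA:CR44619 had a pair of them, 1096 at 444 bp upstream of its TSS and 962 at 494 bp downstream. The others were away from promoters: CG32772 (1162), the MAP kinase pathway kinase Raf (970), the Rel-domain factor NFAT (884), the Tousled-like kinase Tlk (855) and CG3726 (755) in introns, and CG17896 (920) in intergenic sequence 503 bp from a TSS, just past the promoter limit. The ph-p gene lies beside its duplicate ph-d, so reads of the shared sequence could be placed at either copy.

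The X peaks lay at promoters less often, and in introns more often, than the autosomal peaks did. A summit within 500 bp of an annotated TSS was counted as a promoter summit, and the rest were assigned to exons, introns or intergenic sequence. Promoters held 380 of 673 X summits, 56.5%, against 2112 of 3257 autosomal summits, 64.8% (odds ratio 0.703, 95% interval 0.592 to 0.836, Fisher's exact test, two-sided, Benjamini-Hochberg adjusted p over the 4 classes = 0.000103). Introns held 232 X summits, 34.5%, against 782 autosomal summits, 24.0% (odds ratio 1.66, 1.39 to 2.00, Fisher's exact test, adjusted p = 1.62e-07). Intergenic sequence held 40 X summits, 5.94%, against 293 autosomal summits, 9.00% (odds ratio 0.639, 0.443 to 0.903, Fisher's exact test, adjusted p = 0.0127). Exons away from promoters held 21 X summits, 3.12%, against 70 autosomal summits, 2.15%, and this difference did not pass (odds ratio 1.47, 0.849 to 2.44, Fisher's exact test, adjusted p = 0.157).

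These tests compare regions of 1 experiment, not replicates, and neighbouring summits are not independent. Therefore each run of summits no more than 5 kb apart was also counted once, by its strongest summit, which left 449 runs on X and 2207 on the autosomes. The intron and promoter differences passed again, with odds ratios of 1.65 (Fisher's exact test, adjusted p = 7.22e-05) and 0.713 (Fisher's exact test, adjusted p = 0.00317). A long gene such as kirre can still hold more than 1 run, so dependence within genes was only partly removed. The intergenic difference no longer passed with 1 summit per run (odds ratio 0.664, Fisher's exact test, adjusted p = 0.0608) and with a promoter limit of 200 bp (odds ratio 0.761, Fisher's exact test, adjusted p = 0.0636).

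X stood above every large autosomal arm in its share of intronic summits. The 34.5% on X compared with 22.4% on 2L, 23.4% on 2R, 24.0% on 3L and 26.1% on 3R, and the difference from each of these arms passed on its own, with unadjusted p from 4.03e-07 against 2L to 0.000371 against 3R in Fisher's exact tests. For promoters the 56.5% on X compared with 65.0% on 2L, 67.8% on 2R, 61.7% on 3L and 64.9% on 3R, and only the difference from 3L missed the threshold (Fisher's exact test, p = 0.0519). The intergenic share separated X from 2L and 3L, but not from 2R (Fisher's exact test, p = 0.347) or 3R (Fisher's exact test, p = 0.676).

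**Figure D1:**
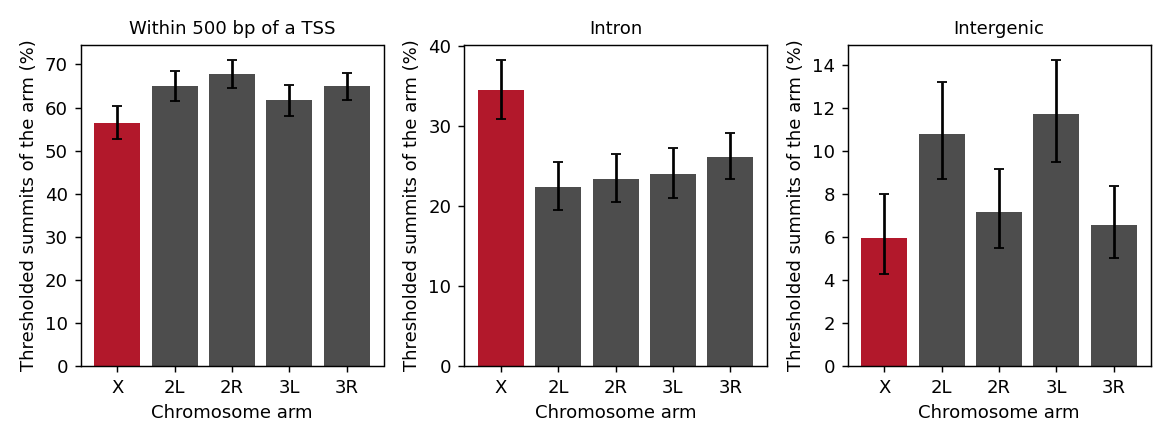
Share of thresholded summits (%, y axis, each panel from 0) at promoters, in introns and in intergenic sequence for X (red) and the 4 large autosomal arms (grey); lines are exact 95% binomial intervals, which cover counting error only. The X bar is the lowest of the promoter panel at 56.5% and the highest of the intron panel at 34.5%, while in the intergenic panel its 5.94% lies beside the 6.56% of 3R.

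The make-up of X differed in the same direction but by less. Introns outside promoter windows covered 43.3% of X against 38.6% of the autosomes, promoter windows 12.6% against 13.8%, and intergenic sequence 22.6% against 28.2%. Measured against the sequence of each class, X had 22.7 intronic summits per Mb of intron against 18.3 on the autosomes, and 128.03 promoter summits per Mb of promoter window against 139 on the autosomes; 3L, with 129, was close to X. The chromosome arm 3R had nearly the same intron content as X, 43.1%, and 17.3 intronic summits per Mb of intron, whereas 2L and 2R had 20.05 and 20.44. X also had 166 annotated TSSs per Mb against 178 on the autosomes, and 97.3 promoter summits per 1000 TSSs against 107, with 102 on 3L. These densities were not tested.

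Promoter summits on X lay further upstream by their median, a measure that was not tested. Their median position was 57 bp upstream of the nearest TSS, against 33 bp on the autosomes, and 274 of the 380, 72.1%, were upstream, against 66.4% on the autosomes. Within 100 bp of the TSS lay 209 X summits, 55% of those at promoters, against 1386 autosomal ones, 65.6%. Divergent promoters, with TSSs of both strands within 500 bp of the summit, made up 98 of 380 X promoter summits, 25.8%, against 687 of 2112 on the autosomes, 32.5% (odds ratio 0.721, 0.557 to 0.928, Fisher's exact test, p = 0.00983). That difference depended on the limit: with 200 bp the shares were 18.0% on X against 17.8% on the autosomes (odds ratio 1.01, Fisher's exact test, p = 0.934), and with the regions of replicate 2 alone the odds ratio was 0.792 (Fisher's exact test, p = 0.0582). Of all annotated TSSs, 22.2% on X against 24.9% on the autosomes had a TSS of the other strand within 500 bp.

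**Figure D2:**
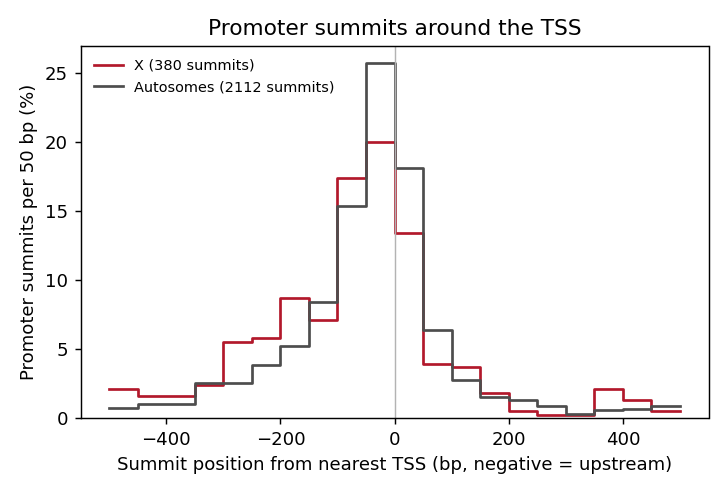
Position of promoter summits relative to the nearest TSS (x axis, bp, negative upstream) as a share of the promoter summits of X (red, 380 summits) or of the autosomes (grey, 2112 summits) per 50 bp (y axis, %). Both sets peak just upstream of the TSS; the X line is lower at the TSS and higher from 150 to 300 bp upstream.

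Away from promoters, the 293 X summits lay a median of 2296 bp from the nearest TSS, against 2095 bp on the autosomes. The most distant X summit was 36685 bp from any TSS, inside kirre, and 31 X summits, 10.6% of those away from promoters, were over 10 kb away, against 8.30% on the autosomes. Median signals were 149 in X introns against 136 in autosomal introns, 140 at X promoters against 138 at autosomal promoters, 134 in X exons against 136 in autosomal exons, and 124 in X intergenic sequence against 139 in autosomal intergenic sequence. The X peaks in introns were thus not weaker than those at X promoters by their medians; no test of these medians was made.

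Some X genes held many summits. Of the protein-coding genes on X, 294 held a summit between start and end, 94 held at least 2 and 13 held at least 5. Those 13 genes held 91 of the 673 X summits, 13.5%, and 66 of the 232 intronic ones, 28.4%, so most intronic X summits lay elsewhere. On the autosomes 40 genes held at least 5, with 229 of 3257 summits, 7.03%, and 152 of 782 intronic ones, 19.4%; these shares were not tested. The most were 11, in kirre, a cell adhesion protein of myoblast fusion, and in the forkhead gene CHES-1-like, followed by 10 in Raf and in CG1677 and 8 in the nuclear receptor gene Hr4 and in Tlk. Because genes nest inside introns, some of these summits belong to the promoters of other genes: in kirre, which spans 394149 bp, the 3 promoter summits were nearest Syx4 and CG3588, and in CG1677 the nested genes with a promoter summit were Atg5 and CBP.

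In CHES-1-like, NFAT and dnc every summit was nearest the gene itself, and in Raf every one was nearest Raf or a noncoding RNA. CHES-1-like held its 11 summits within 27048 bp, 9 of them outside promoter windows, with signals from 95.5 to 446. In Raf, signals ranged from 99.4 to 970; the strongest, whose sequence is printed above, lay 2262 bp into the gene, and 5 more lay between 3735 and 11046 bp into it. All 7 summits of NFAT were in introns, with signals from 104 to 884. In Hr4, 7 of 8 summits were intronic and the strongest had a signal of 507.

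No difference in strength between X and autosomal peaks passed a test. The median signal was 141.7 on X (quartiles 110.9 and 206.2) against 137.1 on the autosomes (quartiles 109.1 and 198.8). Signals above the median of the whole list were found for 351 X peaks, 52.2%, against 1614 autosomal peaks, 49.6% (odds ratio 1.11, 0.937 to 1.31, Fisher's exact test, p = 0.236), and 72 X peaks, 10.7%, against 321 autosomal peaks, 9.86%, were among the strongest 10% (odds ratio 1.10, 0.824 to 1.44, Fisher's exact test, p = 0.525). The intervals leave room for an odds ratio of up to 1.31 for the first and 1.44 for the second, so a modest difference was not detectable here. At the very top, 8 X peaks, 1.19%, against 67 autosomal peaks, 2.06%, had a signal of 1000 or more, while 24 X peaks, 3.57%, against 85 autosomal peaks, 2.61%, lay between 500 and 1000. X held 16.0% of the summed signal. Peaks wider than the median numbered 18 on X, 2.67%, against 100 on the autosomes, 3.07% (odds ratio 0.868, 0.491 to 1.45, Fisher's exact test, p = 0.709); most peaks have the same width of 404 bp, so width carries little information. Among the 1965 strongest peaks, 43.6% on X against 51.2% on the autosomes were wider than the median of those 1965 (odds ratio 0.735, Fisher's exact test, p = 0.00959). That median was taken anew and lay below 404 bp, so this split is not the one made over the whole list. Among the regions of replicate 2 alone, few were wider than their own median, 0.446% on X against 1.90% on the autosomes (odds ratio 0.231, Fisher's exact test, p = 0.00421). In replicate 1 alone the shares were 0.906% against 2.05%, which did not pass (odds ratio 0.437, Fisher's exact test, p = 0.0563). The shares in each replicate alone rest on few wide X regions. The p-values for width were not adjusted for the number of alternatives tried.

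**Figure D3:**
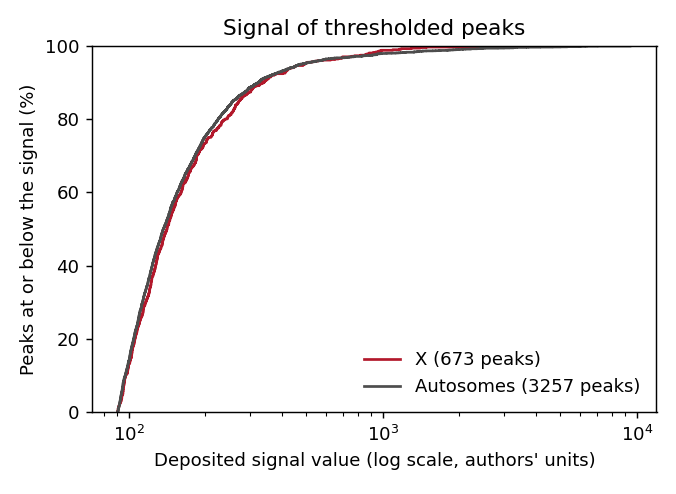
Share of thresholded peaks at or below a signal (y axis, %) against the deposited signal (x axis, log scale, the authors' units) for X (red, 673 peaks) and the autosomes (grey, 3257 peaks). The curves run side by side from 90.8, the weakest X peak, through medians of 141.7 on X and 137.1 on the autosomes, and the X curve ends at 5142.

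By number, X held 17.1% of the thresholded peaks (95% binomial interval 16.0% to 18.3%) for 17.6% of the length of the main chromosome arms, which is 28.6 peaks per Mb against 29.5 on the autosomes. The share was similar further down. In the relaxed lists, which hold the 30000 best regions of each replicate before thresholding, X had 5253 regions in replicate 1, 17.5%, and 4909 in replicate 2, 16.4%. The lists parted at low ranks: among regions past rank 3930, X held 17.6% in replicate 1 (17.1% to 18.1%) and 16.2% in replicate 2 (15.8% to 16.7%), and these intervals do not overlap, while among the first 3930 the shares were 16.8% and 17.1%. Intervals cover counting error only. In the last 3000 ranks the share was 19.6% in replicate 1 and 16.2% in replicate 2.

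**Figure D4:**
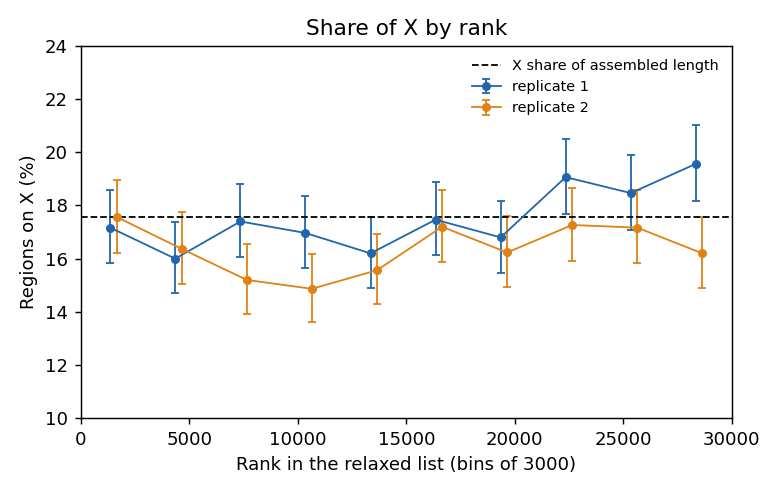
Share of regions on X (y axis, %, starting at 10) in successive bins of 3000 ranks of the relaxed lists (x axis, strongest first) for replicate 1 (blue) and replicate 2 (orange), with exact 95% binomial intervals; the dashed line is the share of X in the assembled length, 17.6%. Replicate 1 lies above replicate 2 in the bins past rank 6000 and ends at 19.6%, replicate 2 at 16.2%.

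The promoter difference was also seen in the strong regions of each replicate. Among the first 3000 regions of the relaxed lists, 57.9% of X regions lay at promoters against 65.0% of autosomal regions in replicate 1, and 56.2% against 66.3% in replicate 2. From rank 3001 to 6000 the shares were 54.0% on X against 58.8% on the autosomes in replicate 1, and 56.8% against 56.9% in replicate 2. From rank 6001 to 9000 they were 47.3% against 49.5% in replicate 1, and 47.4% against 43.5% in replicate 2, and from rank 9001 to 12000 they were 43.0% against 40.4% in replicate 1, and 40.6% against 39.4% in replicate 2. Among these 4 bins X thus had the smaller share in the first 3 of replicate 1 and the first 2 of replicate 2; change with rank was not tested. In the 7860 strongest regions of both replicates pooled, the difference still passed (odds ratio 0.803, Fisher's exact test, adjusted p = 0.000571).

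X peaks were unevenly spaced. Neighbouring summits were a median of 11764 bp apart, 59 gaps were under 1 kb, and bins of 1 Mb held a median of 29 peaks. The bin from 2 to 3 Mb of the assembled X held the most, 52 peaks, and the bin from 3 to 4 Mb had 43 peaks for only 56 genes with a TSS there, or 76.8 per 100 genes, where the neighbouring bin had 41.3 per 100 genes. The largest gap, 1202059 bp, opened after a summit nearest lncRNA:flam, the flamenco RNA that gives rise to transposon-silencing piRNAs, and ended at the last X summit, nearest mir-2491. Beyond it the final 708530 bp of the assembled X, at its pericentromeric end, held none. The bin from 22 to 23 Mb and the shorter last bin had 44 and 15 genes with a TSS, the fewest of all bins.

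Nearly all of these peaks had a match in both replicates. The list was made from both replicates and thresholded by the irreproducible discovery rate (IDR), a measure of reproducibility. Such matches were therefore largely built into it. Of the 673, 668 had a region with a summit within 200 bp in both relaxed lists; CG11403, CG44815 and LIMK1 lacked one in replicate 1, and Cox17 and bi lacked one in replicate 2, all at thresholded signals of 99.4 to 109. Signals were lower in replicate 2 for most: 195 of the 668 were higher there, and the median log2 ratio of replicate 2 over replicate 1 was -0.23 on X and -0.23 on the autosomes. Ratios above the median of all peaks were found for 332 X peaks, 49.7%, against 1625 autosomal peaks, 50.1% (odds ratio 0.986, 0.831 to 1.17, Fisher's exact test, p = 0.899). No shift of X against the autosomes between the replicates was thus detected among the thresholded peaks.

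**Figure D5:**
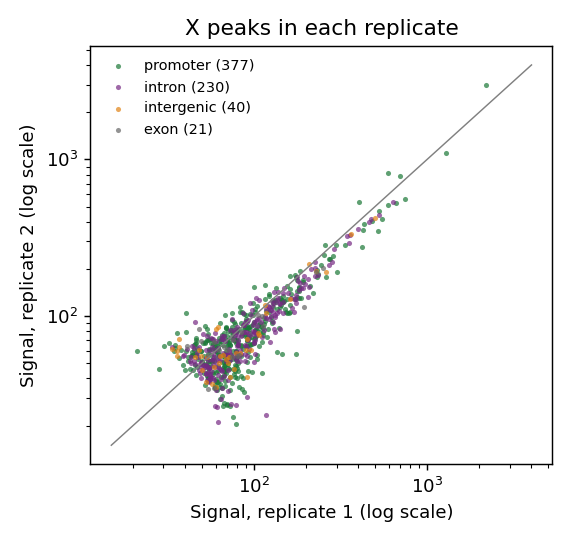
Signal of 668 X peaks in replicate 1 (x axis, log scale) and replicate 2 (y axis, log scale), coloured by the location of the summit; the grey line marks equal values. Points lie along the line for strong peaks, with Snx27 at 2198 and 2959 at the upper right, and spread widely below about 100.

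The largest departures between the replicates were all at peaks with a thresholded signal of 171 or less. Toward replicate 1 these were a summit in an NFAT intron (117 in replicate 1 and 23.5 in replicate 2), the promoters of RpS14a (78.8 and 20.5) and Drak (75.9 and 22.6), and an intron of AdamTS-B (91.4 and 30.3). Toward replicate 2 they were promoters of Tlk (21.0 in replicate 1 and 60.2 in replicate 2), l(1)G0320 (40.3 and 104), HERC2 (35.8 and 78.5), CG14441 (30.3 and 64.4) and FucT6 (32.5 and 67.3). A bbx promoter peak also ranked here (174 in replicate 1 and 57.2 in replicate 2), but its replicate 1 region is the match of a neighbouring bbx peak too, so its ratio is no measure of a replicate difference. In all, 10 X peaks and 40 autosomal peaks shared a replicate region with another peak, and without them the comparison with the autosomes did not pass either (odds ratio 0.993, Fisher's exact test, p = 0.966). RpS14a and its tandem neighbour RpS14b are near-identical copies, so the split of reads between them is uncertain.

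The thresholded list is the 3930 strongest regions of the list made from both replicates together. It was thresholded by IDR, and its edge is also a cut in signal. The 5 weakest X peaks inside had signals of 90.76 to 90.87, nearest RhoGAP19D, CG2200, Pgd, CG14434 and CG42354. The 5 X regions just outside had 90.70 to 90.45, nearest spoon, Myb, ND-B18, CG10993 and Karl. Genes on the 2 sides, such as Pgd, an enzyme of the pentose phosphate pathway, and Myb, a cell-cycle transcription factor, therefore differ little in signal.

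Turning to genes, a thresholded summit was found no further than 1 kb from a TSS for 467 of the 2196 protein-coding genes of X, 21.3%, and for 2787 of 11749 autosomal ones, 23.7%. Each list of X genes is read against that 21.3%; 1 summit can serve neighbouring genes, and the lists are short. Of the 6 genes listed as X signal elements, 2 had such a summit, 33.3%. These were snf and Sxl, the target of the others. The listed genes that signal X number, sisA, sc, upd1 and run, had none, but they are too few to set against the 21.3%. Sxl had 3 summits near its own TSSs. The strongest had a signal of 185, with 90.2 in replicate 1 and 92.5 in replicate 2, at 398 bp downstream of a TSS; a summit 1332 bp downstream had 184, with 111 in replicate 1 and 73.7 in replicate 2; and a summit 16 bp upstream of the first TSS of the gene had 144, with 67.1 in replicate 1 and 77.7 in replicate 2. A further summit of 91.8 lay in a Sxl intron nearest mir-4956. The 3 near Sxl TSSs ranked 205, 214 and 327 of the 673 X peaks, and the last ranked 661. The summit at snf, a splicing protein that acts with Sxl, had a signal of 127, with 66.5 in replicate 1 and 65.2 in replicate 2, and lies between snf and Cdk7.

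Among the X-linked genes of dosage compensation, lncRNA:roX1 had a weak summit and mof and lncRNA:roX2 had none. The roX1 summit lay in its exon 672 bp from the TSS, with a signal of 94.2, with 54.6 in replicate 1 and 34.4 in replicate 2, and ranked 643 of 673 on X. Yp1, Yp2 and Yp3, which encode yolk proteins, had no summit within 1 kb. Only the thresholded list was counted here, so a weaker signal at the genes without a summit would not appear in these counts.

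All 14 ribosomal protein genes on X had a summit, each within 102 bp of a TSS, led by RpL22 (431), RpS28b (343), RpS5a (288), RpL36 (276) and RpS10b (255). Of 13 cytoskeleton and adhesion genes 10 had one, led by the actin gene Act5C (365), the integrin subunit gene mys (246), the junction scaffold gene dlg1 (214), the membrane-actin linker Moe (140) and the actin-bundling Fim (136). The Act5C summit lay 657 bp from the Act5C TSS and nearer to lncRNA:CR45668; the strongest summit inside Act5C had a signal of 153. Of 19 patterning transcription factors 3 had one, 15.8%, near the background of 21.3%: the nuclear receptor usp (171), the T-box gene bi (99.4) and the homeobox gene oc (97.5). All but usp lay below a signal of 100, and ac, l(1)sc, ase, gt, btd, ovo and lz, among others, had none.

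Signalling genes stood between. Of 17, 7 had a summit near a TSS: sgg, the GSK3 kinase of Wnt signalling (579), Raf (416), the Hippo pathway gene Mer (357), the phosphatase csw (164), the receptor N (146), and 2 others. Among 16 chromatin and transcription genes 7 had one, led by ph-p (1185), Top1 (413), Tlk (339), ph-d (181) and Bap60 of the Brahma remodelling complex (174). Cell cycle and repair genes had 4 of 10: Cdk7 (127), mus81 (120), fzr (116) and mei-41 (95.03). The summits of Bap60, Cdk7, mus81 and mei-41 were nearer the TSS of another gene. So were those counted for the signalling gene dx and the chromatin gene nej. The dx summit was the one also counted for the ribosomal protein gene RpL7A.

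Near the background were neuronal genes, with 4 of 15: the cAMP phosphodiesterase dnc (624), the neuronal RNA-binding protein elav (414), Ten-a (200) and Nrg (94.9). So were oogenesis and chorion genes, with 3 of 12: swa, which localises bicoid RNA (303), fs(1)N (130) and the germline thioredoxin dhd (95.1). The summits counted for swa and fs(1)N were nearer another gene, and none of the 4 chorion genes Cp36, Cp38, Cp7Fa and Cp7Fb had one. The list of visible markers had 3 of 15: fs(1)h (246, the same summit as mys), r (114) and rg (91.1, nearer another gene), and neither y nor w had one. Of these, fs(1)h is not a classical visible marker. A summit inside a gene can still lie far from its TSS: Hr4 held 8 summits and norpA 1 of signal 670, yet both count as without a summit within 1 kb.

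The 12 words searched in the windows of 50 bp around summits were the DNA replication-related element TATCGATA, the promoter motif 1 core GGTCACAC, the E-box CAGCTG, the E-box CACGTG, the Zelda word CAGGTA, the repeats GAGAGAGA, CACACACA, ATATATAT and AAAAAAAA, the core promoter word TATAAA, the initiator word TCAGTT and the word TGATAA, known from sites of zinc-finger factors such as serpent. None differed between X and the autosomes after adjustment over the 12 words; the unadjusted p was 0.0211 for AAAAAAAA and 0.0299 for the word TGATAA. The word AAAAAAAA was at 7.58% of X summits against 5.22% of autosomal summits (Fisher's exact test, adjusted p = 0.179), and in the same windows moved by 1000 bp it was at 8.02% on X against 4.21% on the autosomes. TGATAA was at 5.50% on X against 7.92% on the autosomes (Fisher's exact test, adjusted p = 0.179), and in the moved windows at 4.90% against 7.65%. For both words the moved windows thus showed the same direction. For AAAAAAAA the difference passed in the moved windows (odds ratio 1.99, Fisher's exact test, adjusted p = 0.000885), so it was not particular to summits.

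TATCGATA and GGTCACAC were more frequent at summits than in the moved windows, on X and on the autosomes. TATCGATA was at 23 X summits, 3.42%, against 3.68% of autosomal summits (odds ratio 0.925, 0.560 to 1.47), and in the moved windows at 0.743% on X against 0.215% on the autosomes. The moved-window shares rest on few windows, and their difference did not pass (Fisher's exact test, adjusted p = 0.161). The smaller ratio of summits to moved windows on X comes from these shares and was not tested. GGTCACAC was at 2.38% against 2.55%, and in the moved windows at 0.297% against 0.246%. All 23 X summits with TATCGATA were at promoters, among them snf and RpS10b; none of the 293 X summits away from promoters held it, a share of at most 1.25% by the exact 95% interval. None of the 67 strongest X summits held it either, but that allows a share of up to 5.36%, above the 3.42% of all X summits. With windows of 100 bp, CAGGTA was at 6.09% of X summits against 3.72% of autosomal ones (Fisher's exact test, adjusted p = 0.0444) and AAAAAAAA at 17.4% against 10.5% (Fisher's exact test, adjusted p = 2.19e-05). These were not set against moved windows of 100 bp, so they do not tell whether the differences belong to summits. Matches describe the letters in these windows; they are not evidence of binding by the named factors.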

How the data were processed

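The data are ChIP-seq regions of her-GFP from 2 biological replicates of pooled embryos, which form 1 group. Per the deposited notes, the authors made each list from alignments of the immunoprecipitate and of a control that both replicates share; the sources used here name no aligner, peak caller or read depth. The signal of a region is the authors' deposited value on an unstated scale, and the deposited −log10 q-value was read but not printed. The thresholded dm6 list, made from both replicates, gave the peaks; the relaxed dm6 lists of 30000 regions gave signals per replicate, matched when summits were within 200 bp, so that 1 replicate region could match neighbouring peaks, and the thresholded dm3 list was used for signal and width only. Summits are the region start plus the deposited offset.

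Genes and TSSs came from Ensembl release 115, with transposable elements left out, and sequence from the RefSeq Release 6 genome. A promoter was 500 bp to either side of a TSS. Shares on X and on the autosomes were compared over the whole list by two-sided Fisher's exact tests (scipy 1.17.1, Python 3.11.15, pandas 2.3.3, numpy 2.4.6), adjusted by Benjamini-Hochberg within the 4 location classes and within the 12 words, with a threshold of 0.05; the procedure was checked on simulated data. Intervals are exact 95% binomial intervals and cover counting error only. Fisher tests treat regions as independent, and p-values describe regions of this experiment, not replicates.

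The X peaks, the 12 gene lists and the tests were chosen with earlier results of these data known. Named genes are those nearest the 20 strongest and the 5 weakest X peaks, the members of the sex signal, dosage and yolk lists, up to 5 leading members of each other list, the genes with most summits, and the extremes of the replicate ratio. Genes named outside that rule (Syx4, CG3588, Atg5, CBP, mir-4956, lncRNA:flam, mir-2491, the 5 peaks found in 1 replicate only, the 5 regions just outside the list, norpA, lncRNA:CR45668 and listed genes without a summit) were picked after their values were seen. The same holds for dx, nej and RpL7A. Of the listed symbols, 7 (Ptx1, Cortactin, inx2, e(y)1, dalao, mod and rec) had no exact match among the symbols of X genes and were not counted. For inx2 this was a matter of spelling, since the annotation has the X gene as Inx2. The 13 cytoskeleton and adhesion genes therefore leave it out. Alternatives were each replicate's own list, list lengths of 1965 and 7860, promoter limits of 200 and 1000 bp, word windows of 25 and 100 bp, a matching distance of 50 bp, and leaving out chromosome 4 and 1 Mb at the pericentromeric ends.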

Additional observations from a re-analysis of the deposited data

How the results depend on the processing

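Of 168 recomputed values, 133 kept their direction and their side of the threshold, among them all those for promoter and intron summits. No paired analysis was possible because both samples belong to 1 group. Values below are odds ratios of X over the autosomes. The intergenic difference no longer passed with a promoter limit of 200 bp (0.761) or with 1 summit per run within 5 kb (0.664), an alternative chosen after seeing the data, as were the dm3 list and the restriction to peaks with a replicate region of their own. Divergent promoters gave 1.01 with 200 bp, and 0.792 without replicate 1 and 0.750 without replicate 2. Peaks wider than the median, taken anew in each list, passed in the strongest 1965 (0.735), and gave 0.231 to 0.437 with 1 replicate left out. The values with 1 replicate left out rest on few wide X regions. Words passing numbered 2 in the pooled list at double length (TGATAA and AAAAAAAA) and 2 with windows of 100 bp (CAGGTA and AAAAAAAA).

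Some words that did not pass changed direction. Without replicate 1 and without replicate 2, in that order, TATCGATA gave 1.10 and 0.960, GGTCACAC 0.909 and 1.07, CACGTG 0.589 and 0.852, CACACACA 1.61 and 0.941, and TATAAA 0.896 and 1.00. In the strongest 1965, GGTCACAC gave 1.04, CACGTG 0.883, GAGAGAGA 0.985, CACACACA 1.06 and TATAAA 1.04. At double length, TATCGATA gave 1.09, CACACACA 1.23 and TCAGTT 0.994. With 25 bp, TATCGATA gave 1.19 and GGTCACAC 1.15; with 100 bp, TATCGATA gave 1.18, GGTCACAC 1.09, CACGTG 0.842 and CACACACA 1.04. At promoter summits alone, TATCGATA gave 1.10, CACACACA 1.19 and TCAGTT 0.909. The causes were not tested. The sources used here give no read depth, so the smallest share difference these lists could show is known only from the intervals.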

Other observations

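Shorter forms of the DRE word were counted after the sequences of the leading X summits had been read, so they carry no test. TATCGAT, on either strand, was within 50 bp of 53 X summits, 7.88%, against 6.79% of autosomal summits, and in windows moved by 1000 bp it was at 2.08% on X against 1.38% on the autosomes. TATCG was at 22.4% of X summits against 20.9% of autosomal summits, and in the moved windows at 12.2% against 11.0%. Among the 67 strongest X summits, 4 held TATCGAT, 5.97%, a smaller share than the 7.88% of all X summits. Snx27 and CG11596 were among these 4, but Ugalt and Pi4KIIIalpha, ranked 2 and 4 on X, were not. TATCG was at 16.4% of the 67, against 22.4% of all X summits. The windows at X summits were poorer in G and C, with a median of 39.6% against 41.6% at autosomal summits, while the moved windows had 42.6% on both.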
